A study of Sus scrofa with 8 samples.

Results

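This account follows 9 genes of DNA replication and mitosis in the jejunum of weaned and suckling piglets. The list named 10 genes (CCNB1, CDK1, MCM3, PRIM1, MYBL2, CENPM, CDCA7, TOP2A, BIRC5 and CHEK1), and 9 had a probe whose RefSeq accession carries their symbol. No probe was matched to CHEK1, a checkpoint kinase of DNA replication, so it is not analysed here. For each gene the probe with the highest mean log2 processed signal over all arrays was taken, whatever the groups. The 9 genes stand among 3216 genes with a symbol and have 18 probes among 43603. Gene expression was measured on 1-colour arrays of the middle jejunum of Duroc × Landrace piglets aged 25 days, with 1 piglet per array. The 4 weaned piglets had left the sow at 21 days, 4 days before sampling, and ate a basal diet with 20.50% crude protein and a digestible energy of 14.48 MJ/kg. The 4 suckling piglets had stayed with the sow. Both groups were drawn from the same 4 litters, 1 piglet per litter and treatment, but no label ties an array to a litter.

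The lining of the small intestine is renewed from crypts, where stem cells and their rapidly dividing daughters replicate their DNA and divide before the progeny move up the villus, stop dividing and become absorptive enterocytes. Dividing cells switch on replication genes first and mitotic genes later. Transcripts of both kinds are common measures of proliferation in gut tissue, but lymphocytes and other cells also use them. Each sample was a 2 cm segment of the whole jejunal wall, so the arrays do not locate the dividing cells, and fewer cells of a type cannot be told apart from less RNA per cell.

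Values are log2 processed signals minus the array's 75th percentile, so that 0 marks that percentile and 1 unit is a doubling. All 9 genes were well above background on all 8 arrays, and none was saturated on any. All weaned arrays lay on 1 slide and all suckling arrays on another, each with its own scan, so the effects of slide, scan and weaning cannot be told apart. The extraction software's own quality result also split by group, being in range for all 4 weaned arrays and to be evaluated for all 4 suckling arrays. Suckling replicate 1 stood apart from its group. Its 75th percentile was 245, against 317 to 390 in the weaned arrays and 341 to 395 in the other suckling arrays. Across tested probes, which are not independent, it correlated at 0.9647 to 0.978 with the 4 weaned arrays and at 0.953 to 0.9671 with the other suckling arrays. Weaned replicate 3 also came closest to an array of the other group, at 0.9829 with suckling replicate 3 against 0.9785 to 0.982 with the other weaned arrays. Because suckling replicate 1 stood apart, results are given with and without that array, a comparison singled out after its values were seen.

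In all 8 arrays the mean of each of the 9 genes was higher in weaned piglets, by 0.46 to 0.89 on the log2 scale (1.38-fold to 1.85-fold), but none of these differences passed the test. The suckling values were widely spread. Suckling replicates 2, 3 and 4 were low, while suckling replicate 1 lay within the weaned range or above it in every one of the 9 genes, as the plot of values by array shows.

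**Figure D1:**
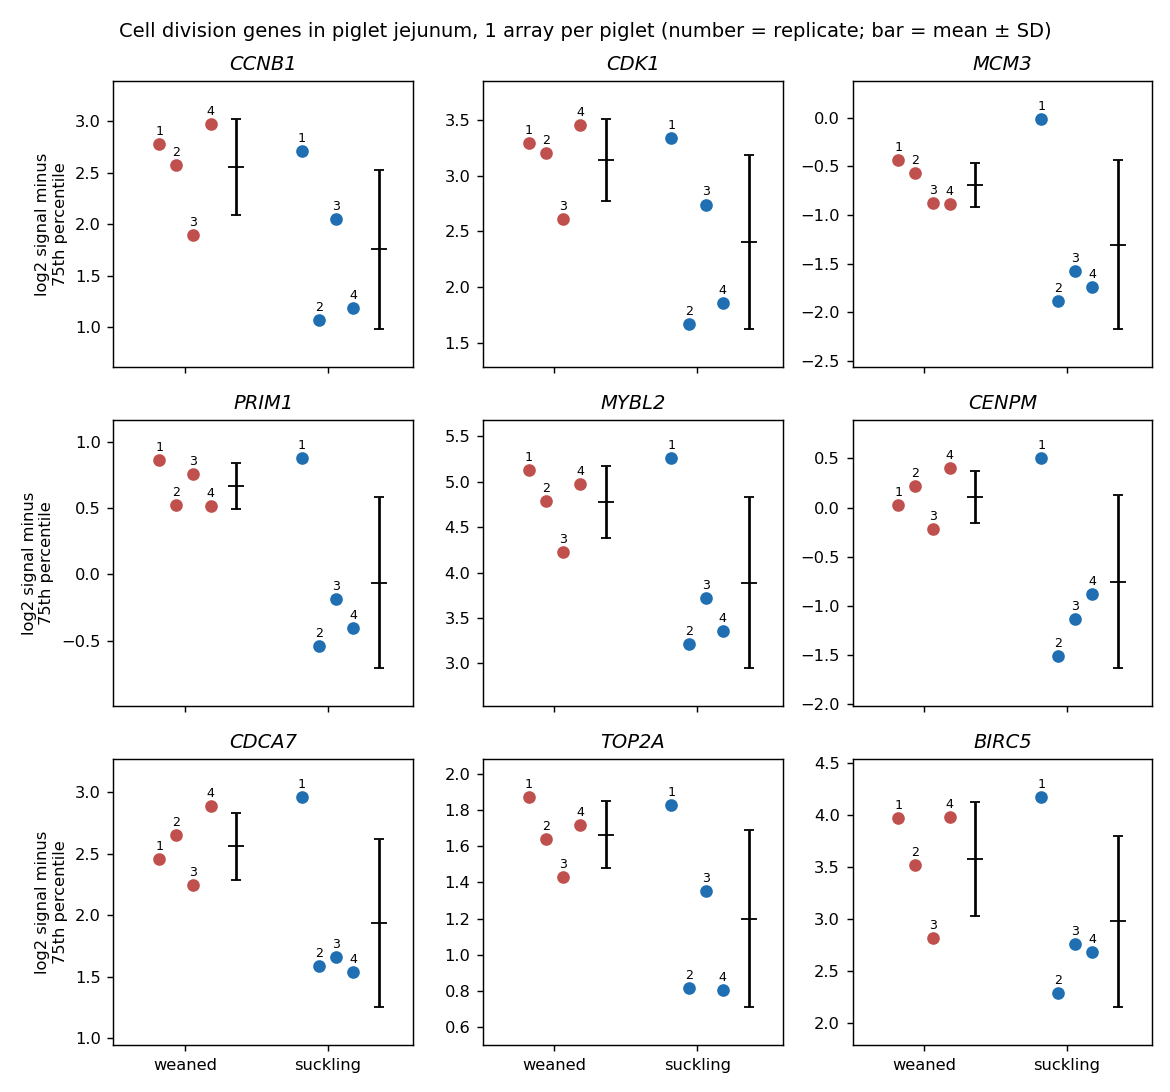
Log2 processed signal minus the array's 75th percentile (vertical axes, each panel with its own range) for 9 genes in 4 weaned (red) and 4 suckling (blue) piglets; digits give the replicate and black bars the mean ± SD (n = 4 each). Suckling replicate 1 lies with or above the weaned arrays in each panel. Suckling replicates 2 to 4 lie lower, except that suckling replicate 3 lies above weaned replicate 3 for CCNB1 and CDK1.

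Among the replication genes, MCM3 encodes a subunit of the helicase that is loaded at replication origins and unwinds DNA. MCM3 had -0.44, -0.57, -0.87 and -0.88 in weaned replicates 1 to 4, against -0.01, -1.89, -1.57 and -1.74 in suckling replicates 1 to 4. Suckling replicate 1 was the highest of the 8 arrays, and the highest of the other 3 suckling arrays lay 0.69 below the lowest weaned array. MCM3 averaged -0.69 ± 0.22 in weaned and -1.30 ± 0.87 in suckling piglets (SD, n = 4 each).

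PRIM1 is the catalytic subunit of the primase that starts new DNA strands with short RNA primers. It had 0.86, 0.53, 0.76 and 0.51 in the weaned arrays, against 0.88, -0.54, -0.18 and -0.40 in the suckling arrays. Its weaned values were close together (SD 0.17), and suckling replicate 1 matched the highest of them. The highest of suckling replicates 2 to 4 lay 0.70 below the lowest weaned value. TOP2A, the topoisomerase that untangles DNA before chromosomes separate, had 1.87, 1.64, 1.43 and 1.71 in the weaned arrays, against 1.82, 0.82, 1.35 and 0.81 in the suckling arrays. Its spread in the suckling group was the smallest of the 9 genes (SD 0.49), and suckling replicate 3 lay 0.07 below the lowest weaned array.

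MYBL2 is a transcription factor that turns on late cell cycle genes in dividing cells. It had 5.13, 4.79, 4.22 and 4.98 in the weaned arrays, against 5.26, 3.22, 3.72 and 3.36 in the suckling arrays. Its difference over the 8 arrays, 0.89 (SE 0.43, 95% interval -0.09 to 1.87, limma adjusted p = 0.449), was the largest of the 9 genes. CDCA7, a chromatin protein of proliferating cells that works with the remodeller HELLS, had 2.46, 2.65, 2.25 and 2.89 in the weaned arrays, against 2.96, 1.59, 1.66 and 1.54 in the suckling arrays. Suckling replicates 2 to 4 agree closely (SD 0.06), and suckling replicate 1 was 1.37 above their mean.

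Of the mitotic genes, CDK1 is the kinase that drives entry into mitosis and CCNB1 is its cyclin partner. CCNB1 had 2.78, 2.57, 1.89 and 2.97 in the weaned arrays, against 2.72, 1.07, 2.05 and 1.18 in the suckling arrays. CDK1 had 3.29, 3.20, 2.61 and 3.45 in the weaned arrays, against 3.34, 1.67, 2.74 and 1.86 in the suckling arrays. For this pair the groups overlapped even apart from suckling replicate 1, because suckling replicate 3 lay above weaned replicate 3.

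BIRC5 (survivin) belongs to the chromosomal passenger complex, which corrects faulty attachments of chromosomes to the spindle. It had 3.97, 3.51, 2.82 and 3.98 in the weaned arrays, against 4.17, 2.28, 2.76 and 2.68 in the suckling arrays. Its lowest weaned value, in replicate 3, was 0.06 above the highest of suckling replicates 2 to 4. CENPM, a centromere protein on which the kinetochore is built, had 0.02, 0.22, -0.22 and 0.40 in the weaned arrays, against 0.51, -1.51, -1.13 and -0.88 in the suckling arrays. For CENPM the gap between the lowest weaned array and suckling replicates 2 to 4 was wider, at 0.67.

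The comparison of weaned with suckling piglets asks whether the jejunum differs 4 days after weaning. Over 8 arrays, limma's test on all 30554 probes called none of the 9 genes (adjusted p = 0.373 to 0.601), where 0.177% of tested probes were called in either direction and 0.173% as higher in weaned piglets. Those calls were 53 higher and 1 lower in weaned piglets (66 higher and 10 lower after normexp background correction). At an unadjusted p under 0.05 limma counted 1 of the 9, PRIM1, against 12.3% of tested probes. PRIM1 was higher by 0.73 (SE 0.30, 95% interval 0.05 to 1.40, limma adjusted p = 0.373). The median difference of the 9 genes was 0.73, beside a median of 0.04 over all tested probes. All 9 means were higher in weaned piglets, as were 54.9% of tested probes. In none of the 9 did the weaned arrays lie above all suckling arrays, which held for 4.93% of tested probes. The genes were chosen with earlier results of these arrays known, so none of these counts is independent support for a direction.

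Without suckling replicate 1, all 9 differences were larger, from 0.67 to 1.35 on the log2 scale (1.59-fold to 2.55-fold), and 5 passed the test as higher in weaned piglets, against 1.23% of 30344 tested probes called in that direction and 1.82% in either. These 5 were MYBL2 (1.35, SE 0.24, limma adjusted p = 0.0418), CENPM (1.28, SE 0.21, limma adjusted p = 0.0349), PRIM1 (1.04, SE 0.16, limma adjusted p = 0.0343), MCM3 (1.04, SE 0.17, limma adjusted p = 0.0349) and CDCA7 (0.96, SE 0.18, limma adjusted p = 0.0436). The other 4 missed the threshold, with differences of 1.12 for CCNB1, 1.05 for CDK1, 1.00 for BIRC5 and 0.67 for TOP2A (limma adjusted p = 0.0989 to 0.109). Whether the called and the uncalled genes differ in their response was not tested. In 7 of the 9 genes every weaned array then lay above the 3 suckling arrays, which held for 12.2% of tested probes, and CCNB1 and CDK1 were the exceptions. At an unadjusted p under 0.05 limma counted all 9, against 22.5% of tested probes, and all 9 means were higher in weaned piglets, as were 55% of tested probes. The median difference was 1.04, beside 0.05 over all tested probes. Leaving out an array that lay above the other suckling arrays in all 9 genes was bound to enlarge the differences. It was left out after its values were seen, and the genes were chosen with earlier results known. None of the counts without it is therefore independent support for a direction.

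These calls rest on few arrays. With a second array left out in addition to suckling replicate 1, none of the 9 genes passed without weaned replicate 1, 2 or 4 or without suckling replicate 2 or 4. Without suckling replicate 3 the count was 5, and without weaned replicate 3 it was 7. The 9 differences stayed above 0 in each of these runs, between 0.58 and 1.53. CDCA7 was not called with median scaling or unscaled signals of the 7 arrays, whereas MYBL2, CENPM, PRIM1 and MCM3 were called under each of the 5 other treatments of these arrays. The plot of differences shows both estimates for every gene, and the plot of all probes places them in the distribution of the whole array.

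**Figure D2:**
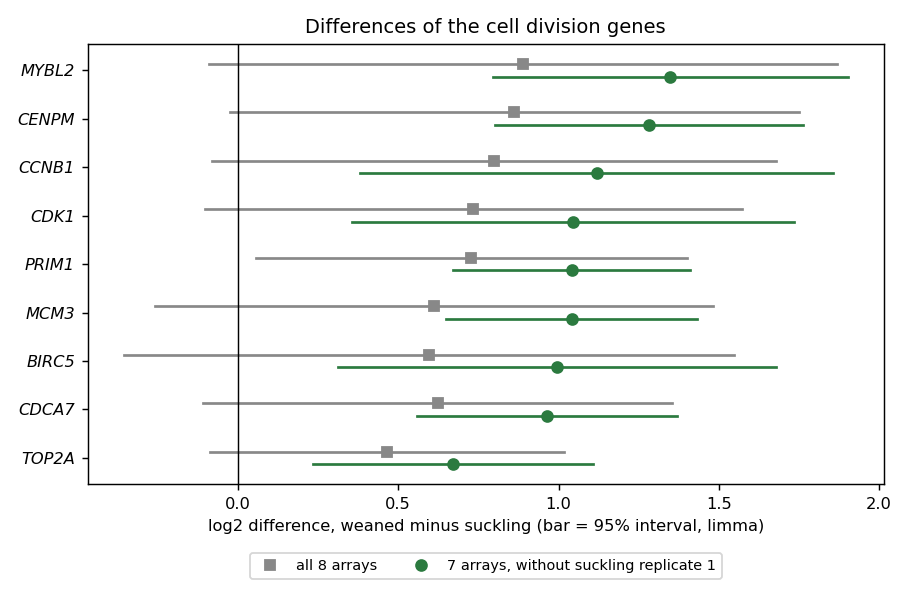
Log2 difference of weaned minus suckling piglets (horizontal axis) with 95% intervals from limma, for all 8 arrays (grey squares) and for 7 arrays without suckling replicate 1 (green circles). With 8 arrays, 1 interval (PRIM1) lies wholly above 0; with 7 arrays the 9 estimates lie between 0.67 and 1.35.

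**Figure D3:**
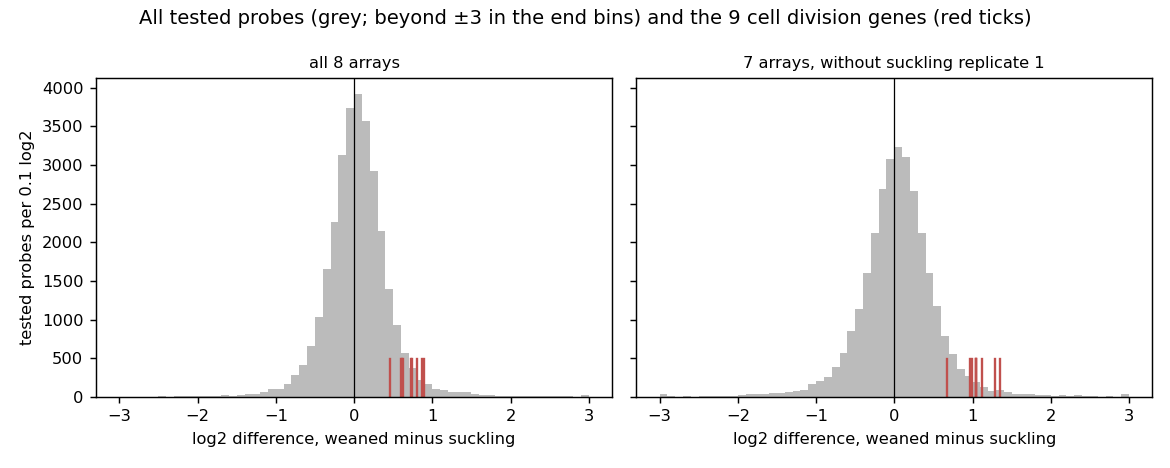
Number of tested probes per 0.1 step of log2 difference, weaned minus suckling, over 8 arrays (left, 30554 probes) and without suckling replicate 1 (right, 30344 probes), with red ticks at the 9 cell division genes. The ticks lie to the right of the centre of the distribution, whose median is 0.04 on the left and 0.05 on the right.

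Suckling replicate 1 differed from its group by more than the weaned group did. It lay 0.83 (TOP2A) to 1.83 (MYBL2) above the mean of suckling replicates 2 to 4, and 0.16 to 0.68 above the weaned mean. It was the highest suckling array in all 9 genes, as in 37.3% of tested probes, and the highest of all 8 arrays in 6 of them (MCM3, PRIM1, MYBL2, CENPM, CDCA7 and BIRC5), as in 20.6% of tested probes. Since this array was the dimmest, the scaling raised it. With unscaled signals it still lay 0.22 to 1.22 above the mean of the other suckling arrays, but above each of them in 6 of the 9 genes rather than in all. Under quantile normalisation, median scaling, normexp correction and in the deposited log2 table it was the highest suckling array in all 9. Within groups, the SD was larger in the suckling than in the weaned piglets for all 9 genes with 4 arrays each, and for 5 of them once suckling replicate 1 was left out.

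At the other end, suckling replicate 2 was the lowest of the 8 arrays in 7 of the 9 genes (15.4% of tested probes), with TOP2A and CDCA7 as the exceptions, where suckling replicate 4 was lowest. Weaned replicate 3 was the lowest weaned array in 7 of the 9 (31.5% of tested probes), all but MCM3 and PRIM1, where weaned replicate 4 was lowest. Suckling replicate 3 was intermediate for the mitotic pair, 0.98 above suckling replicate 2 for CCNB1 and 1.07 for CDK1, but 0.07 above it for CDCA7.

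The 9 further probes of these genes all had a higher mean in weaned piglets, but they differed in size from the chosen ones. They belong to MYBL2 (3), CENPM (2), CDCA7 (2), CDK1 (1) and BIRC5 (1), and were measured in the same RNA, so they are no separate replicates. Their differences over 8 arrays were 0.35 to 0.92 with a median of 0.73, and none passed the test. Without suckling replicate 1 they were 0.49 to 1.32 with a median of 0.97, and 2 passed, both of CDCA7 (1.24 and 1.32, limma adjusted p = 0.0286 and 0.0343). The 3 further MYBL2 probes, at 0.97, 1.10 and 1.22, were not called there (limma adjusted p = 0.0525 to 0.0876). Neither were the 2 further CENPM probes, whose differences of 0.49 and 0.74 were well under the 1.28 of the chosen probe (limma adjusted p = 0.133 and 0.0752), so the CENPM call rests on 1 of its 3 probes and the MYBL2 call on 1 of its 4. Over 8 arrays the smallest difference, 0.35, came from a CENPM probe with means of -2.62 in the weaned and -2.98 in the suckling arrays, dimmer than the probe described above. CCNB1, MCM3, PRIM1 and TOP2A have 1 probe each, so no second probe checks them.

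The wider cell cycle was followed in 10 lists of genes grouped by role, which held 191 further genes, of which 37 had a tested probe. Over 8 arrays none of the 37 passed limma's test in either direction, where 0.177% of all tested probes did. At an unadjusted p under 0.05 limma counted 2 of the 37, CDK4 and PRIM2, against 12.3% of tested probes. The mean of 29 was higher in weaned piglets, as in 54.9% of tested probes, and that of 8 lower. The median difference of the 37 was 0.29. Without suckling replicate 1, 1 of the 37 passed, and it was higher, against 1.23% of tested probes called in that direction. This was ASF1B, a histone chaperone that delivers histones to newly made DNA (1.19, SE 0.23, limma adjusted p = 0.0472), and its call was lost under quantile normalisation, median scaling, unscaled signals and in the deposited log2 table. The median of the 37 was then 0.47, with 33 higher and 4 lower, where 55% of tested probes were higher. Suckling replicate 1 was the highest suckling array in 29 of the 37, as in 37.3% of tested probes. The heat map shows this column beside the weaned ones.

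**Figure D4:**
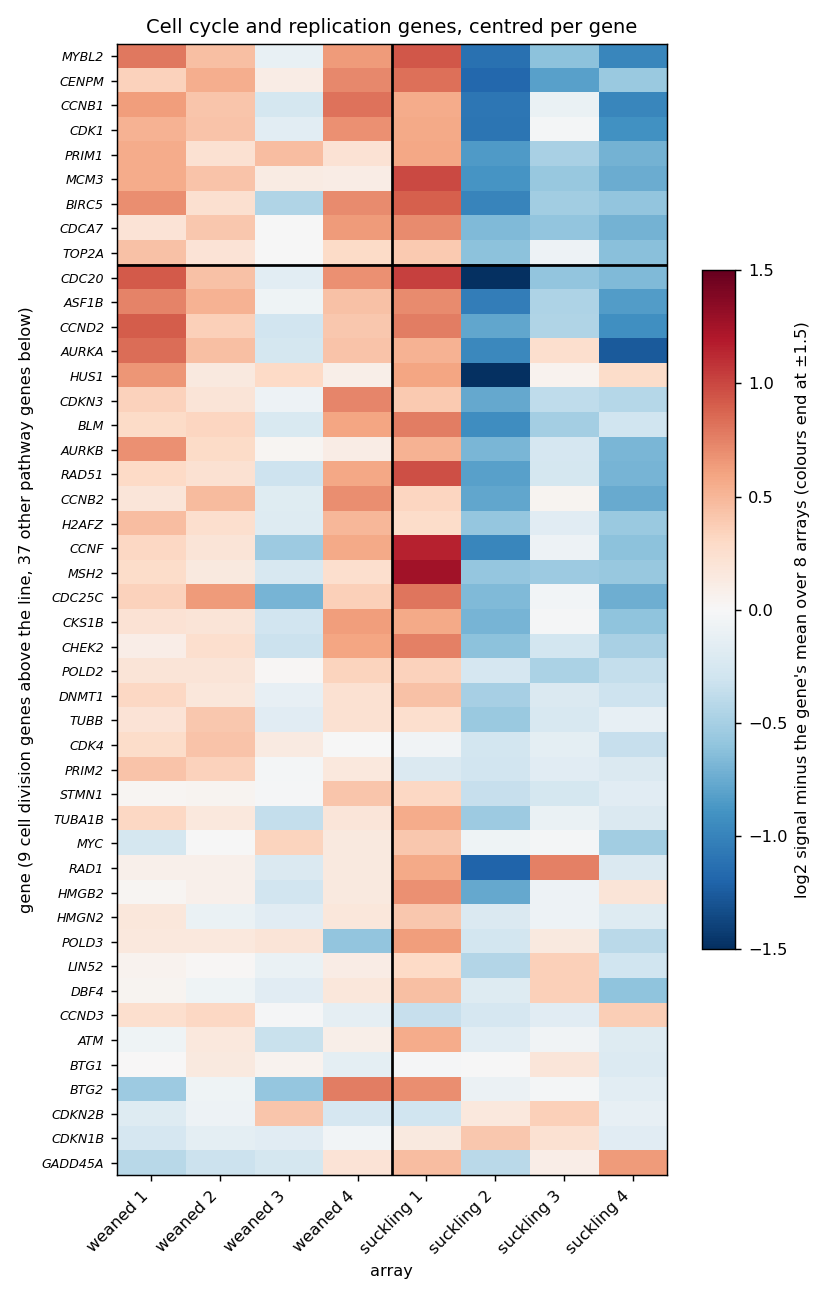
Log2 signal of each gene minus its own mean over the 8 arrays (colour, ending at ±1.5), with arrays in columns (weaned left of the line) and genes in rows, 9 cell division genes above the line and 37 other genes of the cell cycle lists below it, each block ordered by the difference without suckling replicate 1. Most upper rows are red in weaned replicates 1, 2 and 4 and in suckling replicate 1 and blue in suckling replicates 2 and 4.

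By role, the median difference over 8 arrays, leaving out the 9 genes themselves, was 0.72 for 3 mitotic kinases and checkpoint proteins, 0.38 for 7 cyclins and their kinases, 0.37 for 3 replication fork genes, 0.30 for 8 checkpoint and repair genes, 0.23 for 7 chromatin genes and 0.08 for 2 transcription factors. It was -0.13 for 6 inhibitors of the cell cycle. Whether these lists differ from each other was not tested. Among mitotic kinases and checkpoint proteins, AURKB, AURKA and CDC20 were the tested genes besides BIRC5. CDC20, which activates the complex that ends mitosis, had 1.14, 0.66, 0.06 and 0.91 in the weaned arrays, against 1.25, -1.42, -0.37 and -0.44 in the suckling arrays (difference 0.94, limma adjusted p = 0.491, and 1.43 without suckling replicate 1, limma adjusted p = 0.0667). AURKB, the kinase of the passenger complex, differed by 0.55, and AURKA, a kinase of the spindle poles, by 0.72.

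Of the cyclins and their kinases, 7 besides CCNB1 and CDK1 were tested, and all 7 had a higher mean in weaned piglets. CDK4, a kinase that moves cells out of rest, had -0.26, -0.12, -0.41 and -0.54 in the weaned arrays, against -0.59, -0.82, -0.69 and -0.89 in the suckling arrays. Its weaned arrays all lay above its suckling arrays, suckling replicate 1 included, as in 2 of the 37 further genes and 4.93% of tested probes. The difference of 0.42 did not pass the test (limma adjusted p = 0.329). CCND2, a cyclin of the same early step, differed by 0.69, and CCNB2, a second mitotic cyclin, by 0.58 (limma adjusted p = 0.514 and 0.472).

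In the replication fork list PRIM2, the partner subunit of PRIM1, had -0.59, -0.68, -1.05 and -0.86 in the weaned arrays, against -1.24, -1.30, -1.18 and -1.23 in the suckling arrays. Here suckling replicate 1 lay with its own group, unlike for PRIM1, and the difference was 0.45 with it and 0.45 without it (limma adjusted p = 0.290 and 0.147). POLD2, a subunit of a replicative polymerase, differed by 0.37, and POLD3, another subunit of it, by -0.04. DBF4, the activating partner of the kinase that fires origins, differed by -0.01.

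Of the checkpoint and repair list, 8 genes were tested and the mean of 7 was higher in weaned piglets. BLM, a helicase of DNA repair, differed by 0.49, DNMT1, which copies DNA methylation after replication, by 0.29, and HUS1, a clamp of the damage checkpoint, by 0.59, with suckling replicate 2 alone far below the other arrays. In the chromatin list, the histone variant H2AFZ, which can be placed in chromatin outside DNA replication, differed by 0.51 and the tubulin TUBB by 0.33. Of the transcription factors, MYC differed by 0.11 and LIN52, a subunit of the complex that MYBL2 joins, by 0.04.

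The inhibitors were mixed in direction. Of 6 tested, 4 had a lower mean in weaned piglets, and none passed. CDKN1B, which holds cyclin-dependent kinases inactive in resting cells, had 2.12, 2.24, 2.21 and 2.34 in the weaned arrays, against 2.52, 2.78, 2.60 and 2.21 in the suckling arrays (difference -0.30, limma adjusted p = 0.484). GADD45A, a stress-induced growth arrest gene, differed by -0.40 (limma adjusted p = 0.554). CDKN3 is filed with the inhibitors, but it is a phosphatase whose transcript is known to peak in dividing cells, and its mean was higher in weaned piglets by 0.60 (limma adjusted p = 0.417).

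The name of the gene list, not a sample label, places the genes in the crypt. No probe was matched to MKI67, PCNA, LGR5 or OLFM4, the usual markers of proliferation and of crypt stem cells. Of 19 crypt stem cell markers, 4 were tested, each well above background on all 8 arrays, and 1 of them is CDCA7 itself. ASCL2, a transcription factor of crypt stem cells, had 1.76, 1.85, 2.22 and 1.31 in the weaned arrays, against 1.68, 2.12, 1.80 and 0.91 in the suckling arrays. The groups overlapped and the difference was 0.16 (limma adjusted p = 0.858). SOX9, a factor of crypt progenitors, differed by 0.32, and HOPX, a marker of slowly dividing crypt cells, by -0.52 (limma adjusted p = 0.795 and 0.506). Without suckling replicate 1 the differences were 0.17 for ASCL2, 0.66 for SOX9 and -0.79 for HOPX (limma adjusted p = 0.784, 0.305 and 0.0901).

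Markers of villus enterocytes had the opposite order to the cell division genes in the arrays that stood apart. Of 24 such markers, 13 were tested, and all 13 were lowest of the suckling arrays in suckling replicate 1, where the cell division genes were highest. Taken as the median over the list of each gene's deviation from its own mean, enterocyte markers stood at -0.78, -0.16, 0.64 and -0.04 in weaned replicates 1 to 4, against -1.58, 0.51, 0.41 and 1.07 in suckling replicates 1 to 4. The same measure for the 9 cell division genes was 0.56, 0.42, 0.00 and 0.64 in the weaned arrays, against 0.71, -0.99, -0.52 and -0.71 in the suckling arrays. Within the weaned group the opposite order also appeared in replicate 3, which was highest for 11 of the 13 enterocyte markers. How many of all tested probes had either order was not counted. Summed over the 13 probes, the signal relative to the 75th percentile was 1062 to 2340 in the weaned arrays, against 640 in suckling replicate 1 and 3004 to 4395 in the other suckling arrays.

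Single enterocyte markers show the size of this. APOA1, an apolipoprotein of the fat particles made by enterocytes, had 7.28, 7.79, 9.22 and 7.76 in the weaned arrays, against 5.23, 9.73, 9.66 and 9.95 in the suckling arrays. APOA4, a related apolipoprotein, had 7.23 in suckling replicate 1, against 9.11 to 9.42 in the other suckling arrays. FABP1, a fatty acid carrier, had 7.93 there, against 8.87 to 9.27. Over 8 arrays the mean of 9 of the 13 was lower in weaned piglets and that of 4 higher, with a median difference of -0.33. Without suckling replicate 1, 12 were lower and 1 higher, with a median of -0.80. The medians over all tested probes were 0.04 and 0.05. None of the 13 passed the test over 8 arrays or without suckling replicate 1. Of the 13, MEP1A was well above background on 7 of the 8 arrays and the other 12 on all of them. The part that cell composition, the dimness of suckling replicate 1 or its slide position plays in the cell division genes was not tested.

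**Figure D5:**
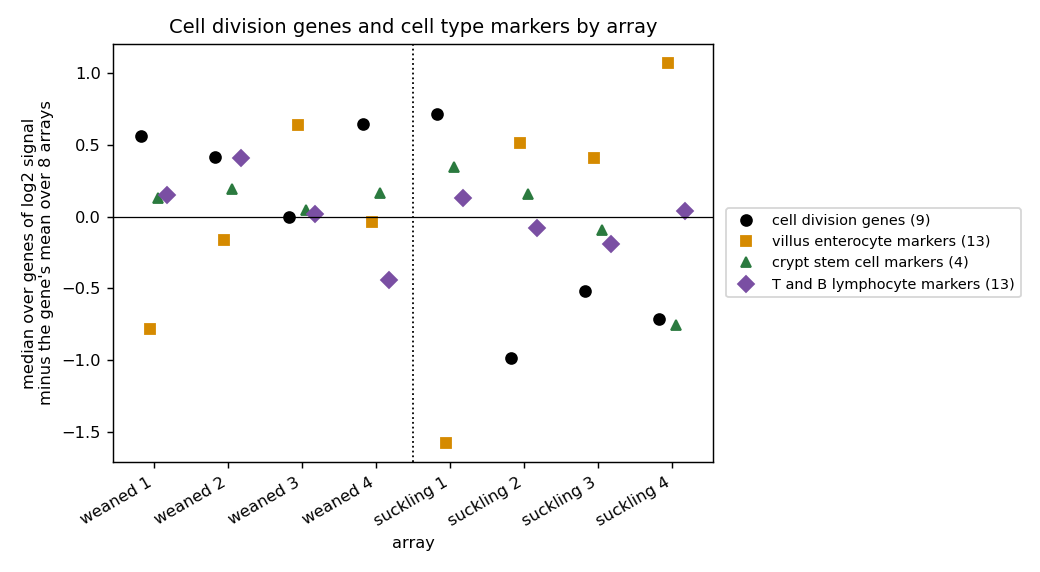
Median over each gene list of the log2 signal minus the gene's mean over 8 arrays (vertical axis) for 4 weaned arrays (left of the dotted line) and 4 suckling arrays, for the 9 cell division genes (black), 13 enterocyte markers (orange), 4 crypt stem cell markers (green) and 13 lymphocyte markers (purple). Suckling replicate 1 holds the highest black and the lowest orange point.

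Markers of other dividing or neighbouring cells were also followed. The 13 tested of 20 T and B lymphocyte markers stood at 0.15, 0.41, 0.01 and -0.44 in the weaned arrays, against 0.13, -0.08, -0.19 and 0.04 in the suckling arrays. Their summed signal was 6.79 to 11.4 in the weaned and 7.06 to 10.1 in the suckling arrays, ranges that overlap, and 11 of the 13 means were higher in weaned piglets. Of the 3 brightest, all chains of the T cell receptor complex, CD3E differed by 0.18, CD247 by 0.48 and CD3G by -0.31. Of the germinal centre and plasma cell markers XBP1 and PRDM1 alone were tested, with differences of -0.10 and -0.28. Of 6 goblet and Paneth cell genes, 5 means were higher in weaned piglets, among them SPINK4 (0.36) but not MUC13 (-0.18). Of 9 macrophage and neutrophil genes, 8 were higher, among them AIF1 (0.33) and TYROBP (0.28). LYZ, the lysozyme of Paneth cells and macrophages that stands in both lists, had 8.27, 7.68, 7.81 and 7.94 in the weaned arrays, against 7.25, 7.16, 5.94 and 4.22 in the suckling arrays. The weaned arrays all lay above the suckling arrays, as in 4.93% of tested probes. The difference of 1.78 did not pass the test (limma adjusted p = 0.297). With LYZ, the summed macrophage and neutrophil signal was 261 to 366 in the weaned and 53.4 to 192 in the suckling arrays. LYZ dominates this sum, so it says little about the other genes of the list. Its mean log2 signal before scaling was 15.5, against 12.4 for AIF1, the next brightest. Suckling replicate 1 had the highest suckling sum. Gene by gene, it was the highest suckling array in 3 of the 9 and the lowest in 3, AIF1 and TYROBP among the latter. Of 6 smooth muscle genes, 5 means were higher in weaned piglets, and the 3 brightest, DES, MYL9 and CNN1, differed by 0.01, 0.06 and -0.10. Of fibroblast genes all 6 tested had a lower mean in weaned piglets, and the 3 brightest, DCN, SPARC and COL1A2, differed by -0.13, -0.25 and -0.57. Of endothelial genes 4 of 6 were lower, among them PECAM1 and VWF but not ENG. The summed endothelial signal was 14.4 to 14.6 in the weaned and 16.2 to 17.8 in the suckling arrays. None of these genes passed the test, and the part of these cells in the differences above was not tested.

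The genes whose profile over the 8 arrays was most like that of the 9 were sought among the other tested genes with a symbol (2764 without missing values). Likeness was the root-mean-square difference from the median profile of the 9, both centred. It was 0.16 to 0.28 for the 9 themselves and 0.69 at the median of the other genes. The closeness of the 9 is partly built in, since the profile is their own median. A gene with the same value on all 8 arrays would score 0.63. The nearest were VARS, a transfer RNA synthetase (0.11), ASF1B (0.12), the nucleotide kinase NME1 (0.14), the nuclear pore protein NUP93 (0.14), the translation initiation factor EIF4G1 (0.18), PCLAF, a partner of PCNA at the fork (0.18), the co-chaperone PTGES3 (0.19) and ELAC2, which trims transfer RNA (0.19). VARS had 4.44, 4.13, 3.57 and 4.27 in the weaned arrays, against 4.52, 2.89, 3.09 and 3.05 in the suckling arrays. None of these 8 genes passed the test over 8 arrays (limma adjusted p = 0.355 to 0.637). Without suckling replicate 1, ELAC2 (1.07, limma adjusted p = 0.0255) and ASF1B passed, and the other 6 did not. They were chosen for this pattern, so their values describe it and do not test it.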

How the data were processed

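RNA of the middle jejunum (integrity number of at least 7.0, per the labels' protocols) of 4 weaned and 4 suckling piglets was labelled with Cy3. The deposited scanner files, made with Agilent Feature Extraction 10.7 per the submitters' processing notes, hold per-spot intensity with background already subtracted. A deposited series table gives log2 values for these arrays (median 5.50 in every column, higher values for brighter probes); its normalisation is not given in the sources used here. Signals of control spots were dropped, those with an outlier flag became missing, and replicate spots of a probe were averaged. Precision is limited by the number of arrays, on which 67.6% to 71.0% of probes stood well above background. Probes were named through RefSeq accessions in a table of the Sscrofa11.1 assembly (6924 probes, 15.9%). A probe was tested when well above background on at least 4 arrays with at least 3 values per group.

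The test was limma's (version 3.58.1, R 4.3.3), two-sided, with group as the sole term of lmFit and eBayes, on log2 signals minus the array's 75th percentile. Benjamini-Hochberg adjusted p-values, taken over all tested probes, passed under 0.05. The code was tested on simulated data of 8 arrays, with probes drawn independently of each other. The test called 30.6% of added changes of 1 log2 unit and 90.6% of added changes of 2. A difference below 1 unit that was not called is therefore no sign that the groups are alike. The members and lists were chosen with earlier results of these data known. Named were the 9 members, 4 further markers, the 3 genes with the smallest p of each cell cycle list, the 3 brightest of each marker list and the 8 genes most alike; CDCA7 and LYZ stand in several lists, and MEP1A was named after its values were seen. Alternatives covered scaling, background, filter, flags, variance model, array weights, the deposited table, the replicate block, probe averaging and arrays left out. Same-numbered arrays were not taken as pairs, since no label ties a number to a litter. Their deviations from the group means correlated at 0.369, 0.008, 0.186 and -0.018 for numbers 1 to 4. Arrays of different numbers were not compared in this way, so these values cannot decide whether numbers mark litters. One gene of the cell cycle lists is not reported here.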

Additional observations from a re-analysis of the deposited data

Results flagged for a closer look

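In 180 groups of 4 arrays (genes, further probes and list medians named above), 18 had an array whose gap to its nearest neighbour took up more of the group's range than Dixon's critical value for 4 samples allows, where chance flags about 1 in 20 groups. The groups are not independent, since probes of one gene, genes of one list and genes picked for their likeness share arrays. The values below are that gap as a share of the range.

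Suckling replicate 1 was the far array in 10 of them. It was highest of the suckling arrays for CDCA7 (0.913, and 0.841 and 0.873 for its 2 further probes), MCM3 (0.831), EIF4G1 (0.969), NUP93 (0.845) and VARS (0.874), and lowest for APOA1 (0.938), APOA4 (0.856) and AIF1 (0.929). Suckling replicate 2 was lowest for ENG (0.857), and suckling replicate 3 was highest for CNN1 (0.847), DES (0.864) and the median of the smooth muscle list (0.845).

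In the weaned group, replicate 2 was highest for AIF1 (0.897) and lowest for DES (0.918). Replicate 3 was lowest for the dimmest MYBL2 probe (0.859). Replicate 4 was lowest for POLD3 (0.948).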

How the results depend on the processing

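The 9 differences were above 0 in every alternative run, from 0.27 to 1.35 with suckling replicate 1 in the data or left out as the single array, and from 0.47 to 1.53 in the further runs without it. The count of the 9 genes past the threshold was 0 with 8 arrays and also 0 under each alternative that kept all arrays, and 0 to 5 with each array left out in turn, 5 without suckling replicate 1. For the other cell cycle genes that range was 0 to 1, and for all probes, where 54 were called, it was 9 to 553. Array weights called 328 probes and the fit with the replicate number as a block called 0. No label says that same-numbered arrays share more than a number. In the 7-array runs, chosen after seeing the data, leaving out 1 further array gave 0 to 7 of the 9 genes, 17 to 1643 probes and 0 to 8 other cell cycle genes. Unscaled signals of the 7 arrays gave 262 probes. The 1 other cell cycle gene called there became 0 under quantile normalisation, median scaling, the deposited table and unscaled signals, and 3 under normexp; the causes were not tested. Unscaled signals moved the median of all probes to 0.17, beside 0.04.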
